A study of Mus musculus with 9 samples.

Results

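The 48 genes described here encode lysosomal hydrolases, cathepsins and lysosomal membrane proteins, together with 3 transcription factors of the MiT/TFE family that control many of them. They were taken by gene symbol from a list, out of 56748 rows of the count table, and every symbol was found. The list was chosen with earlier results of these data known. RNA was sequenced from MLO-Y4 cells, a clonal osteocyte-like mouse line that carries an immortalising antigen under the osteocalcin promoter. The cells sat on collagen under a transwell insert with pores of 1 µm that held primary articular chondrocytes of C57BL/6J mice aged 5 to 6 days, so that only soluble or small material passed between the 2 cell types. The control group (n = 3) shared medium with unstimulated chondrocytes. In the 24 h group (n = 3) and the 48 h group (n = 3) the chondrocytes had first received interleukin-1β at 10 ng/mL for 6 h. The study used the co-culture to ask how osteocytes respond to factors released by inflamed cartilage cells.

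How long the control libraries were cultured is not in the labels, so stimulation and time in culture cannot be told apart in a difference from control. Between the 24 h and 48 h groups, exposure and time in culture both differ and cannot be told apart either. The labels of the 48 h libraries number the line differently in each library, while the protocol names MLO-Y4 for all. Nothing states that the 3 libraries of a group came from separate cultures, so the p-values measure the spread between these libraries, which may be technical. Total counts per library ranged from 12250628 to 15956441 in control, 14440454 to 15558585 at 24 h and 16458398 to 18515456 at 48 h. Every 48 h library was thus deeper than every library of the other groups. In bulk RNA, fewer cells of a type and less RNA per cell cannot be told apart. Among 14 chondrocyte markers, Acan, Matn1, Cnmd, Col9a1, Col9a2 and Ucma had no read in any library, and the summed level of the list, nearly all of it Sox9, was 112 to 124.1 CPM (read counts scaled to library size) in control, 104.3 to 112.2 at 24 h and 125 to 131.3 at 48 h. This sum moved in the same direction as the lysosomal genes, and its part in their change was not tested. Of these markers 4 were frequent enough to be tested, and they did not move together. At 24 h none had an adjusted p under 0.05, with log2 fold changes of -0.617 to -0.104. At 48 h, 2 were higher and 1 lower, between -1.252 and 1.445. These shares, 50% and 25%, rest on few genes and stand against 22% and 24.4% of all 13812 genes tested. Among 14 macrophage and osteoclast markers, Adgre1, Tyrobp, Itgam and Aif1 had no read, and the list summed to 18.73 to 20.77 CPM in control, 24.76 to 26.95 at 24 h and 21.42 to 24.63 at 48 h. Most of this sum was Cd14, which was higher at 24 h (mean of 13.28 CPM in control and 20.48 at 24 h). Csf1r went the other way, at 3.305 CPM in control, 1.836 at 24 h (lower, adjusted p = 0.0377) and 3.235 at 48 h. Of 12 osteocyte and osteoblast markers, Mepe and Fgf23 had no read and 8 were frequent enough to be tested, and the list summed to 3023 to 3191 CPM in control, 3088 to 3122 at 24 h and 3891 to 3960 at 48 h. The rise of this sum at 48 h was mostly that of Gja1, from a mean of 1498 CPM in control to 2413 CPM. Of the 8 tested, 3 were higher at 48 h and 4 lower. The latter were Col1a1, Alpl, Bglap and Sp7, with log2 fold changes of -0.135, -0.38, -0.59 and -1.07. The largest rise among the 8 was 0.688 on the log2 scale. In shares, 37.5% were higher and 50% lower, against 22% and 24.4% of all 13812 genes tested.

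Lysosomes break down proteins, glycans and lipids with acid hydrolases that are made in the endoplasmic reticulum, tagged with mannose 6-phosphate and delivered to an acidic lumen. A heavily glycosylated set of membrane proteins lines the organelle, exports the products and releases calcium. TFEB, TFE3 and MITF bind short E-box motifs near the start sites of such genes and enter the nucleus when the nutrient-sensing kinase mTORC1 is inactive. In bone, cathepsin K is best known from osteoclasts, which secrete it to digest collagen, and osteocytes have been described to use similar enzymes on the matrix around them.

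The motif sought in the promoters was the E-box that these factors prefer, TCACGTGA, which reads the same on both strands and contains the shorter CACGTG. RefSeq promoter windows, from 250 bases before to 50 bases after a start site (GRCm38.p6), were matched for 42 of the 48 genes. TCACGTGA was found in the windows of 5 of these 42 genes (11.9%), against 1.12% of all 27025 genes with a window. The core CACGTG was found in 12 of the 42 (28.6%), against 8.09% of all genes, and the related TCATGTGA, searched on both strands, in 5 (11.9%), against 1.15%. Lamp1 held the core 4 times, at positions -61, -45, -28 and -15 from its start. These are matches of letters and do not show binding. The stretches with TCACGTGA are shown because this is the full form of the motif, and are written 5′ to 3′ on the strand of the gene, with the motif in capitals and positions in GRCm39.
Ctsa, chr2:164675678-164675707, plus strand, motifs from -13 and 5: tgTCACGTGAtgcagatgcTCACGTGAcca
Mcoln1, chr8:3550462-3550491, plus strand, motif from -46: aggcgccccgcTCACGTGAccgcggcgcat
Ctsd, chr7:141941645-141941674, minus strand, motif from -99: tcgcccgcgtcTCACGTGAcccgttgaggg
Gla, chrX:133501964-133501993, minus strand, motif from -228: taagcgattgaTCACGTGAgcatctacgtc
Gla, chrX:133501931-133501960, minus strand, motif from -195: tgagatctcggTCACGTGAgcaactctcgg
Cln3, chr7:126182512-126182541, minus strand, motif from -122: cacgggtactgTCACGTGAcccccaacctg
The stretches of Ctsa, Mcoln1, Ctsd and Cln3 overlap annotated exons of the same gene, and those of Gla overlap exon annotation of its neighbour Hnrnph2.

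Levels between genes were compared as CPM per kilobase of gene length. Psap, which encodes prosaposin, the precursor of 4 activators of sphingolipid breakdown, was the most abundant gene in control at 831.6 ± 15.44 CPM per kb (SD, n = 3), or 25.2% of the summed level of the 48 genes. Ctsb, a cysteine protease, followed at 277.6 ± 11.93 CPM per kb, and Laptm4a, a small membrane protein, at 248.1 ± 5.451 CPM per kb. Ctsz, Lamp1, Grn, Ctsd and Cd63 came next, between 211.5 and 173.3 CPM per kb, and the libraries of neighbours in this order overlapped. At the low end stood Ctsf at 0.3642 CPM per kb and Ctss at 0.05089. Of the genes tested, 16 lysosomal genes were in the top 10% by control level and 3 in the top 1%. By role, proteases held 29.5% of the summed control level per kb, lipid enzymes and carriers 31.6%, membrane proteins 21.1%, glycosidases and sulfatases 11.1%, other lumenal proteins 6.02% and the MiT/TFE factors 0.648%.

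**Figure D1:**
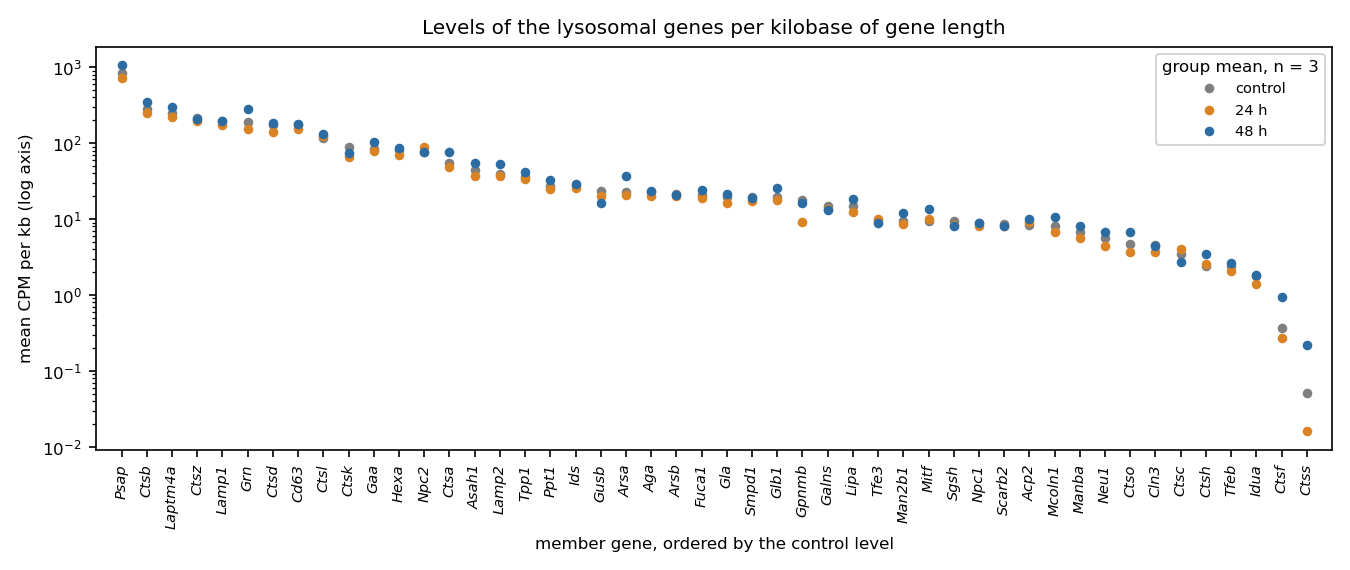
Mean CPM per kilobase of gene length (log axis) of the 48 lysosomal genes in the control, 24 h and 48 h groups (points, n = 3 libraries each), ordered by the control level. Psap lies highest in every group, and Ctsf and Ctss lie lowest, with Ctss far below the others in every group.

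The summed level of the 48 genes was lowest at 24 h and highest at 48 h. It was 11640 ± 321.9 CPM in control, 10440 ± 279.3 CPM at 24 h and 13800 ± 207.4 CPM at 48 h (mean ± SD, n = 3). No library of 1 group reached the range of another, at 11280 to 11900 CPM in control, 10190 to 10740 CPM at 24 h and 13580 to 13990 CPM at 48 h. As a share of all counts this was 1.162% in control, 1.029% at 24 h and 1.398% at 48 h. Abundant genes weighed most in this sum. Psap averaged 2282 CPM in control, 1978 at 24 h and 2911 at 48 h. For Ctsb the means were 1680, 1490 and 2127 CPM, and for Grn 662.2, 527.9 and 986.9 CPM.

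Of the 48 genes, 47 passed the filter on low counts and were tested. Ctss, a cysteine protease of antigen-presenting cells, was not, with 2, 1 and 0 counts in control, 0, 1 and 0 at 24 h and 9, 1 and 6 at 48 h. A gene is called higher or lower where its adjusted p is under 0.05. Since the list was chosen with earlier results known, shares of all genes set beside its counts are a description, not a test. At 24 h, 18 of the 47 were lower than control, 1 was higher and 28 were not called. Over all 13812 genes tested, 2.9% were lower and 3.25% higher in the same comparison. The median log2 fold change was -0.167 over the 47 genes and -0.004 over all genes tested. All 3 libraries at 24 h lay below all 3 control libraries for 29 of the 47 genes and above them for 3, against 11.2% and 10.3% of all genes tested. The count of 18 fell to 7 without 24 h replicate 3, to 9 without 24 h replicate 1 and to 10 without control replicate 1, and 6 of the 19 genes called at 24 h kept their call under all 16 alternatives run: Ctsd, Ctsk, Psap, Npc2, Gpnmb and Grn.

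At 48 h, 24 of the 47 were higher than control, 4 were lower and 19 were not called. Over all genes tested, 22% were higher and 24.4% lower. The median log2 fold change was 0.153 over the 47 genes, or 0.202 without control replicate 1, and -0.002 over all genes tested. The 48 h libraries lay above all control libraries for 24 of the 47 and below them for 6, against 25.7% and 27.4% of all genes tested. Between the stimulated groups, 32 of the 47 were higher at 48 h than at 24 h, 4 were lower and 11 were not called, where 23.7% of all genes tested were higher and 25.4% lower. Here the median was 0.373, against -0.002 over all genes, and the libraries did not overlap for 36 genes above and 4 below, against 29.1% and 30.3% of all genes. A joint test of the 3 groups passed for 37 of the 47, and for 51.9% of all genes tested.

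Both comparisons with control share the control libraries, so their calls are not independent. Side by side, 10 genes were below control at 24 h but above it at 48 h: Ctsa, Ctsb, Ctso, Neu1, Asah1, Psap, Lipa, Mcoln1, Laptm4a and Grn. Over all genes tested this double call was made for 160, or 1.16%. The 10 became 3 (Ctso, Psap and Grn) without 24 h replicate 3, and 6 without 24 h replicate 1 or without control replicate 1, and only Psap and Grn held both calls under all 16 alternatives. A further 14 were called only at 48 h and were higher, and 6 were called only at 24 h and were lower: Ctsd, Hexa, Gla, Lamp1, Cd63 and Gpnmb. Ctsk and Gusb were lower at both times, Ctsc and Sgsh were called only at 48 h and were lower, and Npc2 alone was higher at 24 h. The remaining 12 were called at neither time.

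**Figure D2:**
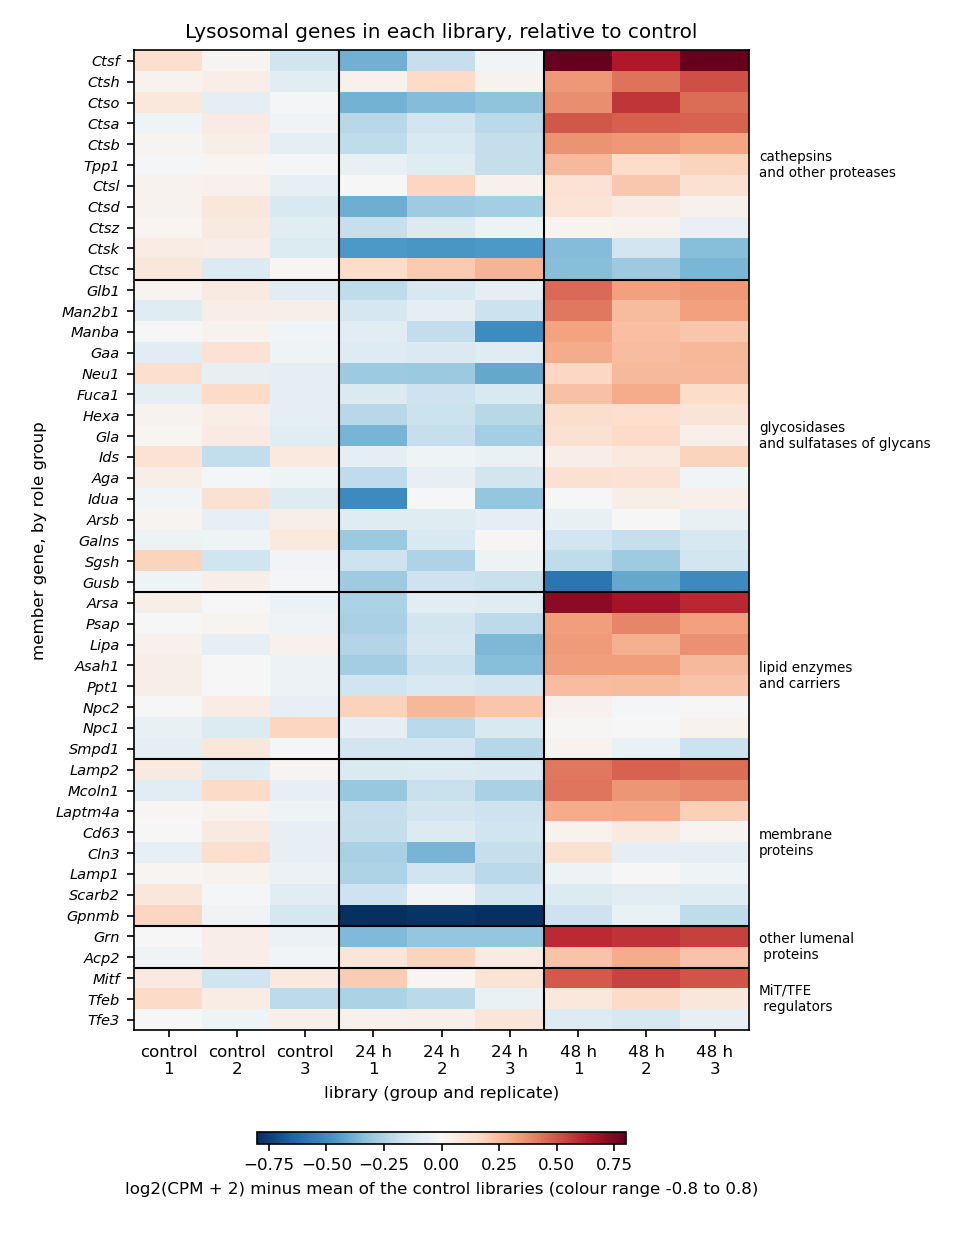
Each row is 1 of the 47 tested genes and each column 1 library, and colour gives log2(CPM + 2) minus the mean of the control libraries, limited to the range shown. Most rows are blue in the 3 libraries at 24 h and red in the 3 at 48 h, while Ctsk and Gusb are blue at both times and Ctsc and Npc2 are the reddest at 24 h.

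**Figure D3:**
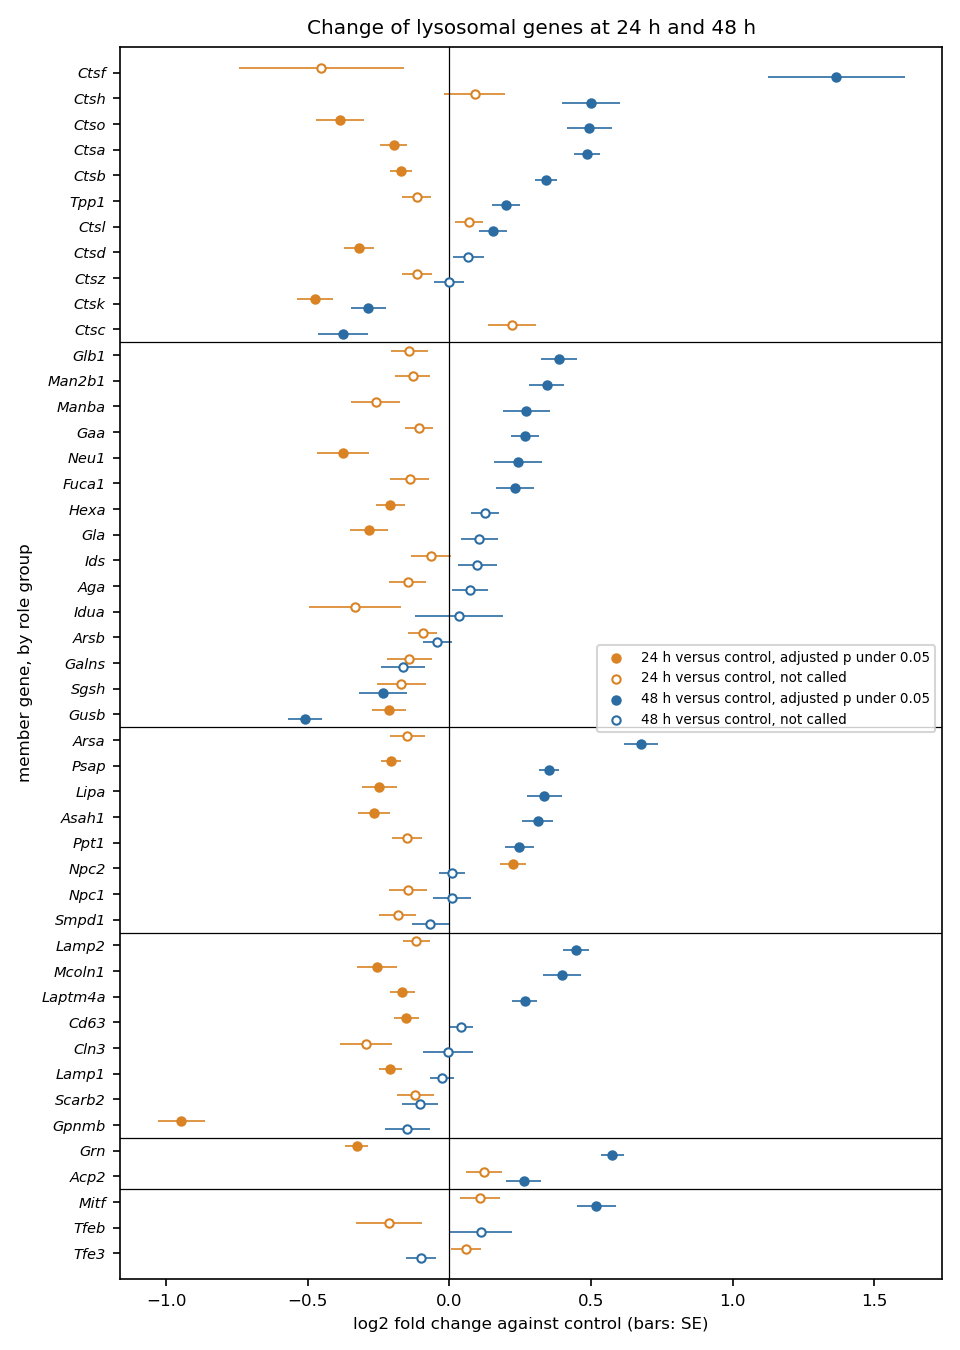
Log2 fold change against control at 24 h (orange) and 48 h (blue) for the 47 tested genes by role, with bars of 1 SE and filled points for adjusted p under 0.05. Points at 24 h lie mostly left of 0 and points at 48 h mostly right, with Gpnmb at -0.95 farthest left at 24 h and Ctsf at 1.37 farthest right at 48 h.

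Of 11 proteases tested, 5 were lower and none higher at 24 h, and 7 were higher and 2 lower at 48 h. The share lower at 24 h was 45.5%, against 2.9% of all genes tested. At 48 h, 63.6% were higher and 18.2% lower, against 22% and 24.4% of all genes tested. The median log2 fold change of the proteases was -0.172 at 24 h and 0.2 at 48 h. Ctsb (chr14:63359911-63383372), a cysteine endopeptidase, stood at 1706, 1735 and 1598 CPM in control, 1461, 1542 and 1468 at 24 h, and 2153, 2140 and 2087 at 48 h. No library of 1 group overlapped another, and the log2 change from control after 24 h was -0.17 ± 0.039 (SE, adjusted p = 0.00983). After 48 h it was 0.34 ± 0.039 (adjusted p = 9.81e-07). Ctsa (chr2:164674793-164682952), a carboxypeptidase that also shields the sialidase Neu1 and the galactosidase Glb1 in a complex, read 254, 271.3 and 254.2 CPM in control, 222, 234.4 and 223.5 at 24 h, and 367.8, 362.2 and 361.2 at 48 h. It too had no overlap between groups, with a change after 24 h of -0.20 ± 0.047 (adjusted p = 0.0146). After 48 h the change was 0.49 ± 0.046 (adjusted p = 9.94e-08). Ctso, a less studied cysteine cathepsin, moved from 25.93, 23.06 and 24.08 CPM in control to 18.29, 18.68 and 19.05 at 24 h and 32.11, 37.22 and 33.84 at 48 h, a fold of 0.765 and then 1.408. The call of Ctsa at 24 h was lost without 24 h replicate 1 or 3, that of Ctsb without either of these, and that of Ctso without control replicate 1, with adjusted p of up to 0.1085, 0.09129 and 0.05759 over the alternatives.

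Ctsd (chr7:141929648-141941775), the main aspartic protease of the lysosome, read 418.9, 438.9 and 378.7 CPM in control, 313.1, 336.9 and 341.1 at 24 h, and 444.4, 430.4 and 420.8 at 48 h. Its libraries at 24 h lay below all others, while control and 48 h overlapped, with changes of -0.32 ± 0.054 (adjusted p = 0.000817) and 0.07 ± 0.054 (adjusted p = 0.327). Ctsk (chr3:95406567-95416673), the collagenase of osteoclasts, went the other way at 48 h. It read 141.5, 141.1 and 125.6 CPM in control, 98.06, 97.71 and 98.07 at 24 h, and 106.3, 122.1 and 106.7 at 48 h. Every stimulated library was below every control library, and its fold against control was 0.7197 after 24 h (adjusted p = 8.41e-05), then 0.8202 (adjusted p = 0.00114). The partial return between 24 h and 48 h, a log2 difference of 0.19 ± 0.064 (adjusted p = 0.0206), lost its call without 24 h replicate 1 or without 48 h replicate 2, with adjusted p of up to 0.1595. Ctsc, a dipeptidyl peptidase that activates granule serine proteases, read 21.66, 18.56 and 20.46 CPM in control, 22.56, 23.63 and 24.83 at 24 h, and 15.54, 16.12 and 15.21 at 48 h. It was the only tested protease below both other groups at 48 h, with a change of -0.38 ± 0.088 from control (adjusted p = 0.00168).

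Ctsl, an abundant cysteine endopeptidase, read 780, 783.3 and 729 CPM in control, 765.4, 859.1 and 782.1 at 24 h, and 827.4, 888.9 and 831.9 at 48 h. All 48 h libraries were above control, by 0.15 ± 0.049 (adjusted p = 0.0158), a call that was lost without 48 h replicate 2 (adjusted p of up to 0.1021 over the alternatives). Ctsh, an aminopeptidase, rose from 11.24, 11.45 and 10.23 CPM in control to 14.51, 15.52 and 16.55 at 48 h (fold 1.415, adjusted p = 0.000538) and read 11.28, 12.5 and 11.22 at 24 h. Ctsf had the highest fold of the 47 genes at 48 h, 2.578, at a low level of 1.836 ± 0.3859 CPM in control and 4.77 ± 0.7752 at 48 h. Tpp1, a tripeptidase lost in a childhood neurodegenerative storage disease, was higher at 48 h by 0.20 ± 0.051 (adjusted p = 0.00354). Ctsz, a carboxypeptidase, was called in no comparison, at 304.7 ± 17.57 CPM in control, 281.4 ± 14.1 at 24 h and 304.3 ± 10.41 at 48 h. Ctsa shares 1515 bases of its span with Pltp on the opposite strand, and Ctsb 774 with Fdft1. Pltp was itself lower at 24 h (-0.25) and higher at 48 h (0.45), and since the strand setting of the counting is not stated, reads of such pairs may not be separate. In these pairs the members have much higher mean counts, 4454 for Ctsa against 849.6 for Pltp, and 27610 for Ctsb against 1538 for Fdft1. In other pairs on opposite strands the partner had more: Ppt1 (1607) shares 129 bases with Cap1 (4776), and Idua (109) 9342 bases with Dgkq (252.9). Acp2 (735.6) shares 2527 bases with Ddb2 (137), and Cln3 (374.6) 876 bases with Apobr (239.3). Ddb2 and Apobr were themselves higher at 48 h, by 0.567 and 0.489.

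**Figure D4:**
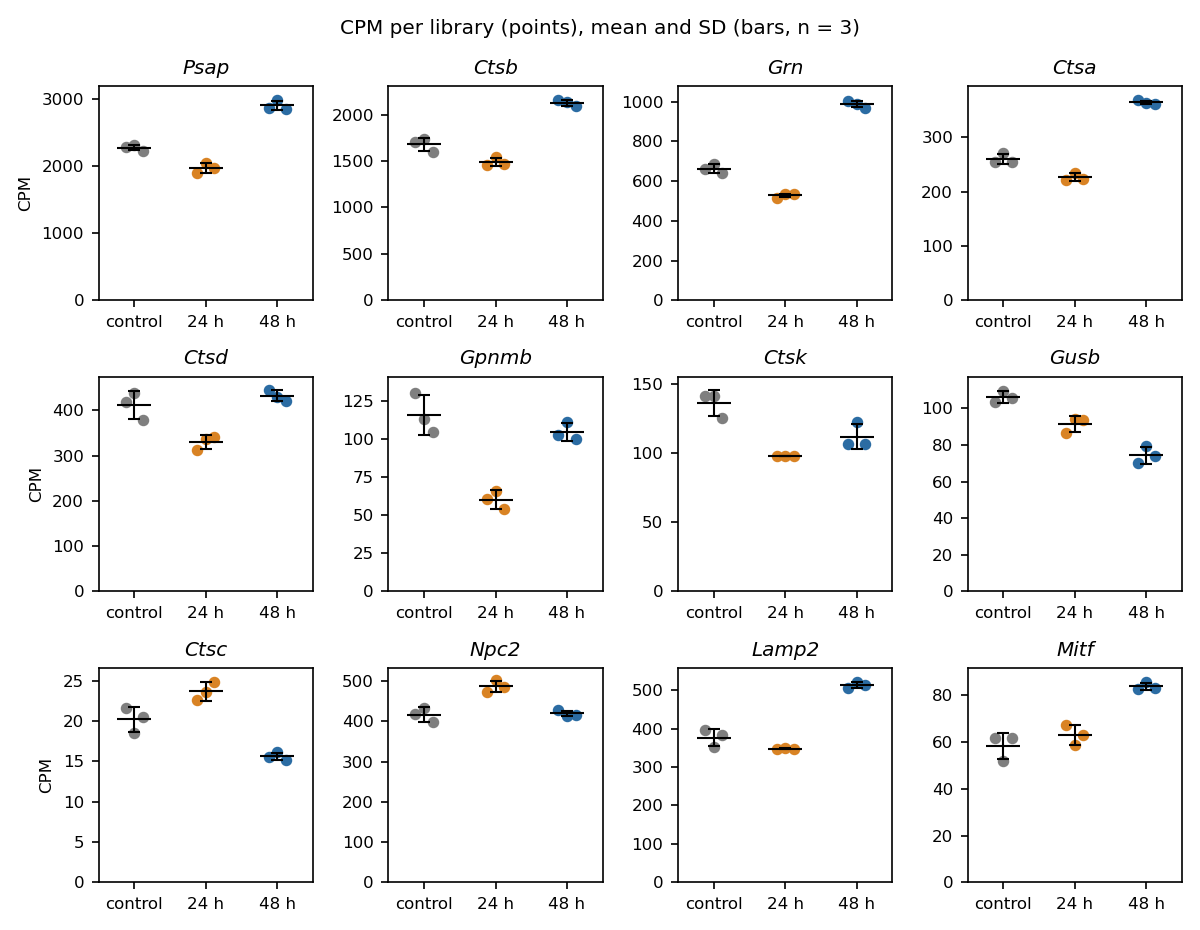
CPM of 12 lysosomal genes in each library (points) with the group mean and SD (bars, n = 3), on axes that start at 0. Psap, Ctsb, Grn and Ctsa show 3 separate groups with 24 h lowest and 48 h highest, Gpnmb and Ctsd dip at 24 h, Gusb steps down at each time, and Npc2 is highest at 24 h.

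Of the 15 glycosidases and sulfatases, 4 were lower and none higher at 24 h, and 6 were higher and 2 lower at 48 h. Their median log2 fold changes were -0.147 and 0.106. The share lower at 24 h was 26.7%, against 2.9% of all genes tested. At 48 h, 40% were higher and 13.3% lower, against 22% and 24.4% of all genes tested. Neu1, the lysosomal sialidase, read 23.35, 20.11 and 20.01 CPM in control, 16.89, 16.8 and 15.38 at 24 h, and 23.88, 25.71 and 25.68 at 48 h. Its change was -0.38 ± 0.091 after 24 h (adjusted p = 0.0162). After 48 h the sign had turned, to 0.24 ± 0.085 (adjusted p = 0.0273). The first of these calls did not survive the removal of control replicate 1 or 24 h replicate 3, and the second was lost with DESeq2 and without control replicate 2 or 3 or 48 h replicate 2 or 3, with adjusted p of up to 0.1165 and 0.08287. Glb1, the β-galactosidase whose activity is used to stain senescent cells, read 59.45, 61.49 and 54.85 CPM in control, 50.66, 53.38 and 55.31 at 24 h, and 80.84, 74.13 and 75 at 48 h. It was not called at 24 h (-0.14 ± 0.065, adjusted p = 0.248) and was higher at 48 h by 0.39 ± 0.063 (adjusted p = 5.61e-05). Thus the 3 partners Ctsa, Neu1 and Glb1 were all higher at 48 h, by folds of 1.4, 1.182 and 1.308. Glb1 shares 6172 bases with Tmppe on the same strand, at mean counts of 983.1 and 166.8, so part of its reads cannot be assigned with certainty.

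Man2b1 and Manba, the α- and β-mannosidases that trim N-glycans, were higher at 48 h. Man2b1 read 71.45, 79.56 and 79.22 CPM in control, 69.56, 72.59 and 67.87 at 24 h, and 103.2, 91.81 and 96.89 at 48 h (fold 1.27, adjusted p = 0.000163). Manba read 46.46, 47.34 and 45.67 CPM in control, 43.72, 40.36 and 32.24 at 24 h, and 58.62, 55.19 and 54.56 at 48 h (fold 1.207, adjusted p = 0.0117, lost without 48 h replicate 1 with an adjusted p of up to 0.05245). The library of 24 h replicate 3 stands apart for Manba. Gaa, which degrades glycogen, and Fuca1, a fucosidase, were also higher at 48 h, by 0.27 ± 0.050 (adjusted p = 0.000227) and 0.23 ± 0.067 (adjusted p = 0.00844). The call of Fuca1 was lost without 48 h replicate 2, with an adjusted p of up to 0.05389.

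Gusb, the β-glucuronidase that acts on glycosaminoglycans, had the largest fall at 48 h among the 47 genes. It read 103.4, 109.6 and 105.6 CPM in control, 86.71, 94.26 and 93.7 at 24 h, and 70.22, 79.41 and 73.83 at 48 h. The 3 groups did not overlap, with a change of -0.21 ± 0.059 after 24 h (adjusted p = 0.0385). The fall deepened to -0.51 ± 0.060 after 48 h (adjusted p = 1.3e-06). The call at 24 h was lost without any 1 of control replicates 1 and 2, the 3 libraries at 24 h and 48 h replicate 3, with adjusted p of up to 0.2255. Sgsh, a heparan sulfatase, read 46.77, 36.63 and 40.4 CPM in control, 36.38, 34.31 and 39.86 at 24 h, and 35.36, 33.38 and 36.89 at 48 h. Its groups overlapped, and its lower call at 48 h (-0.23 ± 0.085, adjusted p = 0.0312) was lost with DESeq2 and without control replicate 1, 48 h replicate 1 or 48 h replicate 2, with adjusted p of up to 0.2924.

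Gla, the α-galactosidase lost in Fabry disease, read 65.29, 67.7 and 60.64 CPM in control, 49.46, 56.51 and 53.13 at 24 h, and 70.22, 71.97 and 66.3 at 48 h. It was lower at 24 h by a log2 change of -0.28 ± 0.067 (adjusted p = 0.0136) and not called at 48 h (0.11 ± 0.065, adjusted p = 0.192). Hexa, a subunit of the hexosaminidase that splits gangliosides, was lower at 24 h (-0.21 ± 0.051, adjusted p = 0.0192) and had an adjusted p of 0.0508 at 48 h, where its 3 libraries lay above control. The 24 h calls of both were lost without control replicate 1, 24 h replicate 1 or 24 h replicate 3, with adjusted p of up to 0.1136 for Gla and 0.1086 for Hexa. Galns, Idua, Ids and Arsb, which act on sulfated glycosaminoglycans, and Aga, which cuts the link between glycans and asparagine, were not called against control, with changes between -0.33 and 0.10.

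Of the 8 lipid enzymes and carriers, 3 were lower and 1 higher at 24 h, and 5 were higher and none lower at 48 h. Their median log2 fold changes were -0.166 and 0.279. At 24 h, 37.5% were lower and 12.5% higher, against 2.9% and 3.25% of all genes tested. The share higher at 48 h was 62.5%, against 22% of all genes tested, of which 24.4% were lower. Psap (chr10:60113449-60138376) read 2290, 2319 and 2236 CPM in control, 1906, 2057 and 1971 at 24 h, and 2874, 2994 and 2865 at 48 h. The groups were fully apart, with a change of -0.21 ± 0.036 after 24 h (adjusted p = 0.00118). After 48 h it stood 0.35 ± 0.036 above control on the log2 scale (adjusted p = 2.96e-07). Arsa, the sulfatase that acts on sulfatide bound to a saposin, read 87.52, 84.46 and 81.63 CPM in control, 70.62, 79.62 and 78.81 at 24 h, and 140.8, 135.4 and 129.2 at 48 h. Its fold of 1.598 at 48 h (adjusted p = 3.71e-08) was the highest after Ctsf among the 47 genes, while at 24 h it was not called (fold 0.9027, adjusted p = 0.192).

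Asah1, the acid ceramidase, read 154.9, 149.7 and 146.1 CPM in control, 123.6, 133.1 and 118.1 at 24 h, and 190.1, 189.6 and 180.2 at 48 h. Lipa, the acid lipase that frees cholesterol and fatty acids, read 101.9, 94.93 and 102.2 CPM in control, 84.24, 90.49 and 77.26 at 24 h, and 126.7, 121.7 and 129 at 48 h. For both genes the 3 groups did not overlap. Asah1 changed by -0.27 ± 0.055 (adjusted p = 0.00512) and 0.31 ± 0.054 (adjusted p = 0.00012), and Lipa by -0.25 ± 0.062 (adjusted p = 0.0214) and 0.34 ± 0.061 (adjusted p = 0.000181). The 24 h call of Asah1 was lost without 24 h replicate 3, and that of Lipa without control replicate 1, 24 h replicate 1 or 24 h replicate 3, with adjusted p of up to 0.05246 and 0.1588. Ppt1, which removes fatty acids from proteins, was higher at 48 h (0.25 ± 0.051, adjusted p = 0.000589).

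Npc2, the soluble protein that hands cholesterol to the membrane protein Npc1, was the only gene of the 47 called higher at 24 h. It read 417.4, 433.9 and 397.9 CPM in control, 472.3, 501.7 and 485.2 at 24 h, and 427, 414.2 and 416.7 at 48 h. Its 24 h libraries were above all others, by 0.22 ± 0.045 over control (adjusted p = 0.0038), and the change at 48 h was 0.01 ± 0.045 (adjusted p = 0.874). Npc1 was not called, with a change of -0.146 at 24 h near the median of the lipid genes, at 101.3 ± 10.98 CPM in control, 91.56 ± 4.533 at 24 h and 101.9 ± 1.067 at 48 h. Smpd1, the acid sphingomyelinase, was not called either, at 65.58 ± 3.809, 57.69 ± 1.75 and 62.56 ± 4.418 CPM.

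Of the 8 membrane proteins, 5 were lower and none higher at 24 h, and 3 were higher and none lower at 48 h. The median log2 fold change was -0.188 at 24 h and 0.018 at 48 h. The share lower at 24 h was 62.5%, against 2.9% of all genes tested. The share higher at 48 h was 37.5%, against 22% of all genes tested, of which 24.4% were lower. Lamp1 and Lamp2 are the main glycoproteins of the lysosomal membrane, and Lamp2 also takes part in chaperone-mediated autophagy. Lamp1 read 535, 540.2 and 512.8 CPM in control, 446.2, 473.1 and 455.3 at 24 h, and 515.3, 527.9 and 516.4 at 48 h. Lamp2 read 395.7, 351.8 and 382 CPM in control, 346.9, 348.9 and 346.3 at 24 h, and 504.9, 521.9 and 513.3 at 48 h. Lamp1 was thus lower at 24 h (-0.21 ± 0.042, adjusted p = 0.00415) and within the control range at 48 h (-0.03 ± 0.042, adjusted p = 0.643). Lamp2 was not called at 24 h (-0.12 ± 0.047, adjusted p = 0.174) and was higher at 48 h (0.45 ± 0.047, adjusted p = 3.26e-07). The 24 h call of Lamp1 was lost without 24 h replicate 1 (adjusted p of up to 0.05287 over the alternatives).

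Mcoln1, the calcium channel of the lysosomal membrane, read 57.38, 68.28 and 58.46 CPM in control, 49.26, 53.9 and 50.8 at 24 h, and 83.13, 78.75 and 80.13 at 48 h. Laptm4a read 459.1, 464.4 and 445 CPM in control, 400.4, 411.5 and 406.9 at 24 h, and 561.8, 563.2 and 521.2 at 48 h. For both the groups did not overlap, and at 48 h the fold was 1.317 for Mcoln1 (adjusted p = 8.98e-05) and 1.203 for Laptm4a (adjusted p = 6.83e-05). At 24 h it was 0.8382 for Mcoln1 (adjusted p = 0.0355) and 0.8906 for Laptm4a (adjusted p = 0.0288). The call of Mcoln1 at 24 h was lost without control replicate 2, 24 h replicate 1, 24 h replicate 3 or any 48 h library, and that of Laptm4a without control replicate 1 or 2 or any 24 h library, with adjusted p of up to 0.1847 and 0.1557.

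Gpnmb, a transmembrane glycoprotein of lysosomes and melanosomes that is also made by osteoblasts and osteoclasts, had the largest change at 24 h among the 47 genes. It read 130.5, 113.6 and 104.6 CPM in control, 60.68, 66.34 and 53.9 at 24 h, and 103.1, 111.6 and 100.4 at 48 h. The 24 h libraries were far below the rest, at a fold of 0.5187 of control (log2 -0.95 ± 0.083, adjusted p = 4.75e-07), and control and 48 h overlapped (-0.15 ± 0.079, adjusted p = 0.137). Cd63, a tetraspanin of late endosomes and exosomes, was lower at 24 h by -0.15 ± 0.044 (adjusted p = 0.0462), a call that was lost without any 1 of 8 libraries, every one but control replicate 3, with adjusted p of up to 0.2417. Scarb2, the receptor that brings glucocerebrosidase to lysosomes, was not called in any comparison. Cln3, a membrane protein lost in juvenile Batten disease, was called only between 24 h and 48 h (0.29 ± 0.090, adjusted p = 0.0127), and that call was lost without 24 h replicate 2 or 48 h replicate 1, with adjusted p of up to 0.08554.

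Grn encodes progranulin, a secreted and lysosomal protein whose granulins support the hydrolases. It read 659.5, 685.8 and 641.2 CPM in control, 516.9, 533.9 and 532.8 at 24 h, and 1001, 990.1 and 969.3 at 48 h. The groups were widely apart, with a fold of 0.7973 after 24 h (adjusted p = 2.99e-05). After 48 h the fold was 1.49 (adjusted p = 1.78e-09). Between 24 h and 48 h the log2 difference was 0.90 ± 0.040 (adjusted p = 4.18e-12), the lowest adjusted p among the 47 genes. Acp2, the lysosomal acid phosphatase, read 42.32, 44.89 and 42.43 CPM in control, 46.39, 49.22 and 45.37 at 24 h, and 51.02, 53.52 and 50.87 at 48 h. It was higher at 48 h by 0.26 ± 0.062 (adjusted p = 0.00194) and not called at 24 h (0.12 ± 0.063, adjusted p = 0.313), when its 3 libraries also lay above control.

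The 3 MiT/TFE factors did not move together. Mitf (chr6:97784013-97998310) read 61.4, 51.92 and 61.47 CPM in control, 67.22, 58.79 and 62.79 at 24 h, and 82.38, 85.4 and 83.01 at 48 h. It was higher at 48 h than in control (fold 1.432, adjusted p = 6.35e-06), with no overlap, and not called at 24 h (fold 1.078, adjusted p = 0.453). Tfeb read 15.38, 14.31 and 11.51 CPM in control, 11.15, 11.46 and 13.05 at 24 h, and 14.57, 15.4 and 14.68 at 48 h. Tfe3 read 88.65, 86.59 and 91.56 CPM in control, 91.25, 91.53 and 95.18 at 24 h, and 82.56, 81.32 and 84.83 at 48 h. Neither was called against control, at -0.21 ± 0.116 and 0.11 ± 0.111 for Tfeb and 0.06 ± 0.053 and -0.10 ± 0.053 for Tfe3 at 24 h and 48 h. Between 24 h and 48 h, Tfeb was higher (0.33 ± 0.112, adjusted p = 0.0223) and Tfe3 lower (-0.16 ± 0.053, adjusted p = 0.0172). The Tfeb call was lost with DESeq2 and without 24 h replicate 1, 24 h replicate 2 or 48 h replicate 2, and the Tfe3 call without TMM scaling and without 24 h replicate 3, 48 h replicate 1 or 48 h replicate 2, with adjusted p of up to 0.09026 and 0.09303. Activity of these factors is set mainly by phosphorylation and place in the cell, which RNA counts do not measure.

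The 5 genes with TCACGTGA in the window had 24 h values on the same side of control, with log2 fold changes of -0.20 for Ctsa, -0.255 for Mcoln1, -0.32 for Ctsd, -0.28 for Gla and -0.295 for Cln3, of which only the last was not called. At 48 h the values were 0.49 for Ctsa, 0.40 for Mcoln1, 0.07 for Ctsd, 0.11 for Gla and -0.005 for Cln3, and only Ctsa and Mcoln1 were called. All 5 were higher at 48 h than at 24 h, by 0.29 to 0.68. Most of the set went the same way: of the 47 genes, only 7 had a positive log2 fold change at 24 h against control. Between 24 h and 48 h, 41 of the 47 had a positive one. Whether the 5 differ from each other or from the other genes was not tested.

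Other parts of the lysosomal system gave a mixed picture. The alternatives were run for the 48 genes only, so how far the calls in these other lists depend on 1 library was not tested. Of 37 further lysosomal enzymes and membrane proteins tested, 7 were lower and none higher at 24 h, and 12 were higher and 2 lower at 48 h, with median log2 fold changes of -0.123 and 0.149. The share lower at 24 h was 18.9%, against 2.9% of all genes tested. At 48 h, 32.4% were higher and 5.41% lower, against 22% and 24.4% of all genes tested. Sidt2, a gene of a lysosomal membrane protein, rose at 48 h by 0.59 (adjusted p = 1.93e-07), and Ctns, the cystine exporter, by 0.44 (adjusted p = 0.00032). Of 18 subunits of the V-ATPase, the proton pump that acidifies the lumen, 8 were lower and none higher at 24 h. At 48 h, 7 subunits were lower and 1 higher than control, with a median of -0.044, while against 24 h 10 were higher and 2 lower at 48 h, with a median of 0.177. The share of subunits lower at 24 h was 44.4%, against 2.9% of all genes tested. At 48 h, 38.9% were lower and 5.56% higher than control, against 24.4% and 22% of all genes tested. Between 24 h and 48 h, 55.6% were higher and 11.1% lower, against 23.7% and 25.4%. Atp6v1h fell by 0.34 on the log2 scale (adjusted p = 0.000101) and Atp6v1a rose by 0.18 (adjusted p = 0.0075). That the pump and the hydrolases differ was not tested.

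Of 13 genes of mannose 6-phosphate tagging and sorting, 2 were lower and none higher at 24 h, and 1 was higher and 3 lower at 48 h. The share lower at 24 h was 15.4%, against 2.9% of all genes tested. At 48 h, 7.69% were higher, against 22% of all genes tested. The 23.1% lower at 48 h is close to the 24.4% of all genes tested. Gnptab, the transferase that starts the tag, was lower at 48 h (-0.36, adjusted p = 4.93e-05). Of 17 genes of nutrient sensing at the lysosome, 3 were lower and none higher at 24 h, and 4 were higher and 4 lower at 48 h. The share lower at 24 h was 17.6%, against 2.9% of all genes tested. The shares at 48 h, 23.5% in each direction, are close to the 22% and 24.4% of all genes tested. Flcn, folliculin, which acts on the Rag GTPases that hold TFEB and TFE3 at the lysosome, changed by -0.39 at 24 h (adjusted p = 0.000486) and then by 0.29 (adjusted p = 0.000521), and its partner Fnip2 by -0.27 (adjusted p = 0.0412) and 0.79 (adjusted p = 8.32e-08). Fnip1 was called only at 48 h (0.39, adjusted p = 0.00177). Of the cathepsin inhibitors, Cst6 was lower at 24 h (-0.76, adjusted p = 5.83e-06) and lower again after 48 h (-0.92, adjusted p = 3.59e-08), Cst3 was higher at 48 h (0.30, adjusted p = 0.000968), and Cstb was lower at 24 h (-0.20, adjusted p = 0.0377).

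**Figure D5:**
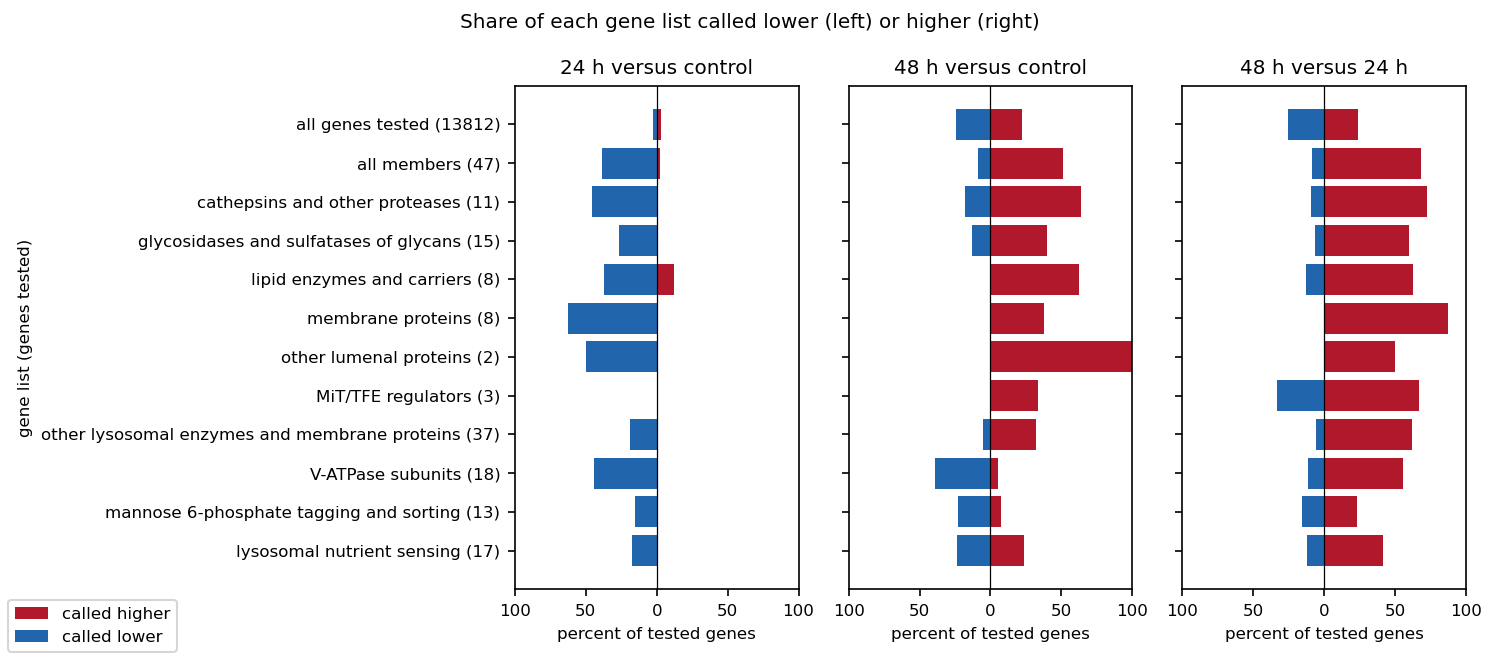
Percent of the tested genes of each list (number tested in brackets) called lower (blue, left) or higher (red, right) in the 3 comparisons. At 24 h the bars of the lysosomal lists point left, except for 1 lipid gene, Npc2, and for the MiT/TFE factors, which have no call. At 48 h those of the hydrolase and lipid lists point mainly right while the V-ATPase bar points mainly left. Percentages of lists with 2 or 3 genes rest on very few genes.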

How the data were processed

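The 9 libraries fall into 3 groups of 3 by the sample titles. The table deposited by the authors holds raw read counts of each gene, as whole numbers and without normalization. Per the labels and the study's methods, directional paired-end reads were trimmed, aligned to GRCm39 with HISAT2 and counted with featureCounts. Versions of featureCounts and the model of sequencer are given differently in different sources, the methods also name RSEM, and neither the strand setting nor the handling of reads with several matches is given in the sources used here. Gene coordinates and lengths are those of the deposited table.

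Counts were analysed with edgeR 4.0.16 (limma 3.58.1, R 4.3.3). filterByExpr with a minimum count of 10 kept 13812 genes, which held 99.9% of reads. Library sizes were scaled by TMM, and CPM are relative to the scaled size. A quasi-likelihood model of all 9 libraries had the group as its single term, with 6 residual degrees of freedom. Benjamini-Hochberg adjustment ran over all genes tested, and an adjusted p under 0.05 made a call. Every adjusted p in the text is from this test unless another is named. SE is the absolute log2 fold change divided by the square root of F. The steps were tested on simulated data. The most abundant gene of the set had at least 27935 counts in each library, so counting error mattered for low genes such as Ctsf, with 14 to 103 counts.

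The 48 genes, their roles and the other lists were chosen with earlier results of these data known. Per comparison and role, the 3 called genes with the largest change in each direction and a mean of at least 5 CPM are given per library, with 12 genes set by name. Promoter windows are RefSeq's, and their stretches were located in GRCm39 by exact match. Alternatives were DESeq2 1.42.0 as a test, its size factors, no TMM scaling, no low-count filter, a threshold of 0.01, only the 2 groups compared, a replicate block, and leaving out each library.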

Additional observations from a re-analysis of the deposited data

Results flagged for a closer look

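The change from control at 48 h differed from that at 24 h for 36 of the 47 genes. This rests on the test of the difference between the stimulated groups in the fit of all libraries. The shared control cancels in that difference. Exposure and time in culture both differ between these groups and cannot be told apart. A call in this test was common, being made for 6782 of the 13812 genes. A call by itself thus does not set the 36 apart. Their direction was less balanced: 32 rose and 4 fell, where among the 13812 genes 23.7% rose and 25.4% fell. The values below are log2 differences, 48 h minus 24 h. All carry an adjusted p under the threshold (edgeR quasi-likelihood test). Among proteases they were 1.82 for Ctsf, 0.88 for Ctso, 0.68 for Ctsa, 0.51 for Ctsb, 0.41 for Ctsh, 0.39 for Ctsd, 0.32 for Tpp1, 0.19 for Ctsk and -0.60 for Ctsc. Among glycosidases they were 0.62 for Neu1, 0.53 for Manba, 0.53 for Glb1, 0.475 for Man2b1, 0.39 for Gla, 0.37 for Gaa, 0.37 for Fuca1, 0.33 for Hexa, 0.22 for Aga and -0.30 for Gusb.

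Among lipid genes the differences were 0.82 for Arsa, 0.58 for Lipa, 0.58 for Asah1, 0.56 for Psap, 0.395 for Ppt1 and -0.21 for Npc2. Among membrane proteins they were 0.80 for Gpnmb, 0.65 for Mcoln1, 0.56 for Lamp2, 0.43 for Laptm4a, 0.29 for Cln3, 0.195 for Cd63 and 0.18 for Lamp1. For Grn the difference was 0.90, for Mitf 0.41, for Tfeb 0.325 and for Tfe3 -0.16. The calls of Aga, Cln3, Ctsk, Tfeb and Tfe3 were lost under at least 1 alternative, while those of the other 31 held under all 16.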

How the results depend on the processing

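Leaving out 1 library moved the count of genes lower at 24 h, 18, to between 7 and 19. It was 11 with only the 2 groups compared, 9 at an adjusted p under 0.01 and 19 with the replicate block. Some of these settings use fewer libraries or a stricter threshold, and the cause of the changes in the count was not tested. The median log2 fold change at 48 h, 0.153, lay between 0.12 and 0.202 when 1 library was left out. The count of genes lower at 24 h and higher at 48 h, 10, was rerun after seeing the data, with 3 to 10 on leaving out 1 library, 6 with only the 2 groups compared, 5 at an adjusted p under 0.01 and 12 with the replicate block. The other counts and medians rerun, those called in each direction or jointly and the medians of each comparison, stayed within 1.5 times their value or within the replicate spread. Of 1440 repeats for 30 named genes, 1353 kept direction and call, 73 lost the call, 11 gained it and 3 turned direction. The last were uncalled values near 0: Npc2 at 48 h, 0.01, ranged from -0.008 to 0.051 on leaving out 1 library, and Sgsh between 24 h and 48 h, -0.064, from -0.105 to 0.004. No called gene turned. Same-numbered libraries did not deviate together (correlations of -0.1 to 0.168), so the numbers were not taken to pair them. With the block, 958 genes instead of 849 were called at 24 h. Low counts limit Ctss and Ctsf most.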
